A study of Homo sapiens with 4 samples.

Results

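The cytosolic ribosomal protein genes were examined in T24 cells with and without the TET1 catalytic domain (TET1-CD). Members were taken by gene symbol, as RPL or RPS followed by a number with an optional A or X, the P-stalk genes RPLP0, RPLP1 and RPLP2, and RPSA and FAU. This gave 78 of the 57879 genes in the files, with 753 of the 195700 transcripts. Of these genes, 46 code for proteins of the large subunit and 32 for proteins of the small subunit. RACK1 (listed as GNB2L1), which also gives a ribosomal protein, does not carry such a symbol and was placed in another list.

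Cytosolic ribosomes translate the mRNAs of the nucleus, and each subunit is built from rRNA and a fixed set of proteins, nearly all present in a single copy. The ribosomal protein mRNAs are among the most abundant in dividing cells. Most of them begin with a pyrimidine-rich stretch, the 5′ terminal oligopyrimidine (TOP) tract, through which mTOR signalling and the RNA-binding protein LARP1 set their translation and stability. Their output is matched to rRNA synthesis and to the many assembly factors that build subunits in the nucleolus.

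RNAseq was performed on T24, an established human bladder carcinoma line. Control cells carried an empty vector (EV), and TET1-CD cells stably expressed a FLAG-tagged catalytic domain of TET1, the dioxygenase that oxidises 5-methylcytosine. Each group had 2 libraries, all grown in the same medium, and the labels name both poly(A) selection and rRNA removal without saying which was used. Whether the 2 libraries of a group came from separate cultures, and whether the lines were pools or clones, is not given in the sources used here, so p-values measure only the spread between these libraries, which may be technical. The inactive mutant of the catalytic domain was not analysed here, so activity and the presence of the protein cannot be told apart.

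The expected counts of the authors (fragments assigned by estimate, so not whole) summed to 17442143 to 20295266 per library, and the totals of the groups overlapped. TET1 was counted 111 and 83 times in controls and 2939 and 3310 times with TET1-CD, so the labels fit the vector. The urothelial and epithelial keratin genes KRT7, KRT8 and KRT18 were at 396 to 697 FPKM (fragment counts corrected for length and depth), while KRT19, EPCAM and GATA3 were low, at 0.38 to 6.87 FPKM. The mesenchymal gene VIM was at 1344 to 1837 FPKM. The uroplakin genes UPK1A, UPK2 and UPK3A were at or below 0.33 FPKM, as was CDH1, so these defining genes of differentiated urothelium were near 0. The blood genes PTPRC, CD3E and HBB were at or below 0.15 FPKM.

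Ribosomal protein genes took a smaller share of all counts with TET1-CD than in controls. They held 4.31% and 4.50% of the counts in control replicates 1 and 2, and 4.11% and 4.14% in TET1-CD replicates 1 and 2. Neither group overlapped the other, with means of 4.40% ± 0.14 (SD, n = 2) and 4.12% ± 0.02 (SD, n = 2). Large subunit genes held 2.82% ± 0.083 of the counts in controls and 2.62% ± 0.011 with TET1-CD (SD, n = 2). Small subunit genes held 1.58% ± 0.053 and 1.50% ± 0.0081 (SD, n = 2). The ratio of large to small subunit counts was 1.79 and 1.78 in the control libraries and 1.75 and 1.74 in TET1-CD libraries, so the groups did not overlap here either. With 2 libraries against 2, an exact two-sided permutation test cannot go below p = 0.333, and no test of these shares was made. As these are shares of the sequenced mRNA, less ribosomal protein mRNA per cell and more of other mRNA cannot be told apart.

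**Figure D1:**
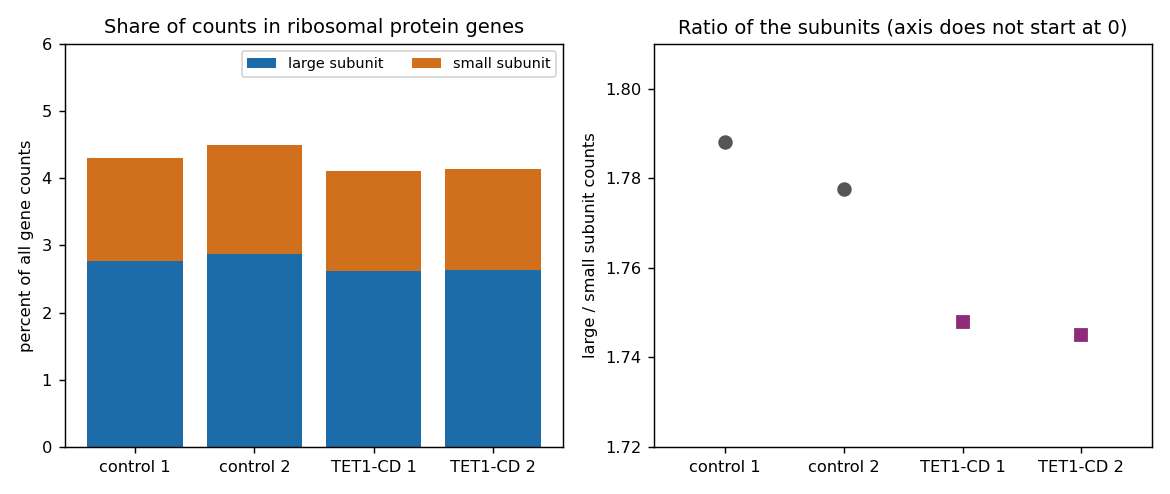
The left panel stacks the percent of all gene counts held by large (blue) and small (orange) subunit genes in each library, with no error bars since each bar is 1 library. The right panel gives the ratio of large to small subunit counts on an axis that does not start at 0, with both TET1-CD libraries (1.75 and 1.74) below both control libraries (1.79 and 1.78).

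The control libraries differed from each other in these genes. Of the 78 members, 71 had a higher level in control replicate 2 than in control replicate 1, with a median log2 ratio of 0.09, while 39 of 78 were higher in TET1-CD replicate 2 than in TET1-CD replicate 1. Set against the control mean, the median member was at -0.05 and 0.05 on the log2 scale in control replicates 1 and 2, and at -0.11 in both TET1-CD replicates. The median member thus lay lower in either TET1-CD library than in either control library. Genes encoded in mitochondrial DNA moved with this difference. They held 2.91% and 3.39% of the counts in controls and 2.49% and 2.73% with TET1-CD, and 10 of the 15 tested were called lower. Their part in the result was not tested.

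Gene by gene, all 78 members had enough counts for a test. In edgeR's quasi-likelihood test with Benjamini-Hochberg adjustment over 14573 genes, 18 members were lower with TET1-CD at an adjusted p under 0.05. This is 23.1% of the members, while 9.61% of all genes tested were called lower and 10.0% were called higher. No member was called higher in edgeR, DESeq2 or limma-voom, where 5.85% (DESeq2) of all genes were called lower and 6.09% higher. At an unadjusted p under 0.05 in edgeR, 34 members were lower, against 16.4% of all genes, and none was higher, against 16.8%. A fold change of at least 2 was reached by none of the 78, against 1.04% (lower) and 2.72% (higher) of all genes tested. The falls were small: the 18 genes lay between -0.45 and -0.19 on the log2 scale, which is a loss of 12.2% to 26.6%.

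Of the called genes, 14 belonged to the large subunit (30.4% of 46) and 4 to the small subunit (12.5% of 32). Whether the subunits differ in this share was not tested. The median log2 fold change was -0.12 over large subunit genes and -0.11 over small subunit genes, while the median of all genes tested was 0.00. Of the 78 members, 70 were below 0, as were 49.8% of all genes tested. In 53 members both TET1-CD libraries were below both control libraries, in 4 both were above, and in 21 the groups overlapped. Over all genes tested, 30.2% were lower and 30.8% were higher without overlap. The count of calls depended on single libraries. When either TET1-CD library was left out, the share of members called lower was not above that of all genes. When either control library was left out, it was above. Such fits leave 1 library in a group, so medians are given for large and small subunit genes. They were -0.16 and -0.16 without control replicate 1, and -0.084 and -0.065 without control replicate 2. Without TET1-CD replicate 1 they were -0.12 and -0.09, and without TET1-CD replicate 2 they were -0.12 and -0.10.

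**Figure D2:**
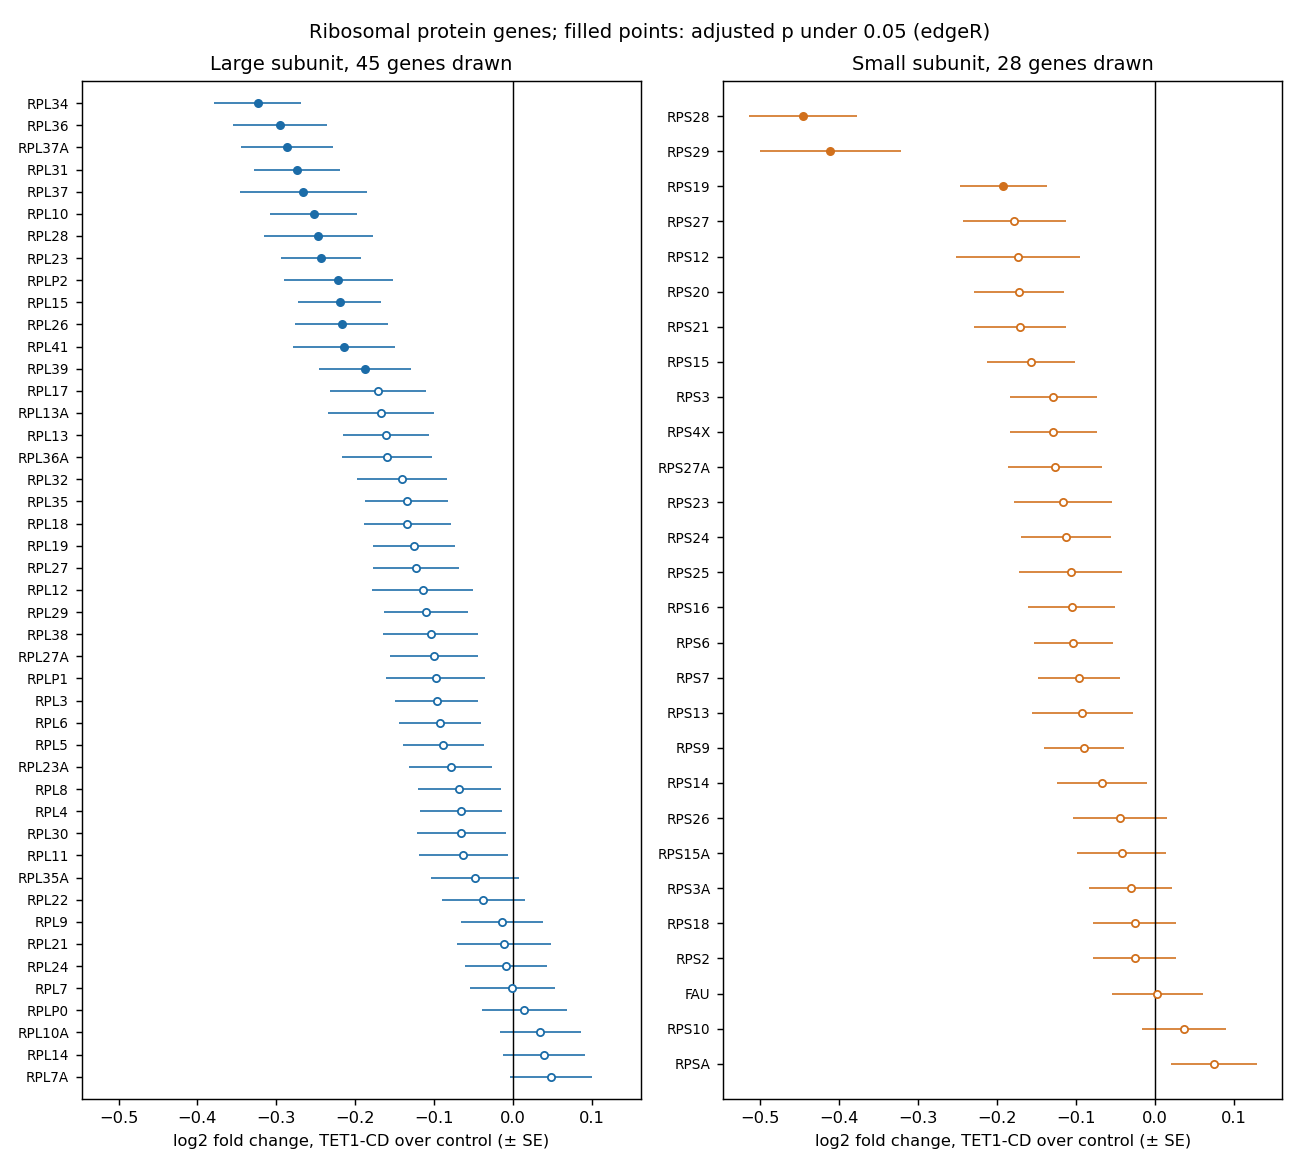
Each row is a member, with its log2 fold change between TET1-CD and control cells on the x axis and bars of 1 standard error from edgeR's fit. Filled points passed an adjusted p under 0.05, and all filled points lie to the left of 0. Members not reported by name are not drawn.

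The largest falls were in RPS28 and RPS29, small subunit genes with short coding sequences of 207 and 168 nt. The transcript with the most counts was 1330 nt long in RPS28 and 295 nt long in RPS29. The mean level of RPS28 was low, at 35.3 FPKM against a median of 643 over members. RPS28, which sits where mRNA leaves the subunit and contacts the messenger upstream of the start codon, spans 8386042 to 8388224 of chromosome 19 in GRCh37, plus strand. Its normalised counts (scaled by TMM, which corrects for library size and composition) were 972 and 1040 in controls and 741 and 735 with TET1-CD. The groups were well apart, and RPS28 fell by 0.45 on the log2 scale (SE 0.07, edgeR's quasi-likelihood test, adjusted p = 0.00194), a loss of 26.6%. It was the only member called in all 14 alternatives, including those that left out a library.

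RPS29, a small zinc-binding protein of the head of the subunit, lies on chromosome 14 from 50043390 to 50065408 on the minus strand. Its normalised counts were 1446 and 1523 in controls and 1233 and 1001 with TET1-CD. TET1-CD replicate 2 was the lowest of the 4 libraries, and the groups did not overlap. It fell by 0.41 (SE 0.09, adjusted p = 0.0108 from edgeR) and was called in 12 of 14 alternatives.

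RPS19, the gene first linked to Diamond-Blackfan anaemia, an inherited failure of red cell production, had 7680 and 8196 normalised counts in controls and 6832 and 7062 with TET1-CD. It was called lower, with a log2 fold change of -0.19 (SE 0.06, adjusted p = 0.036 from edgeR). The groups were separate but close.

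In the large subunit, RPL34, RPL36, RPL37A and RPL31 led. RPL34, on chromosome 4 from 109541722 to 109551568 on the plus strand, had 4559 and 4881 normalised counts in controls and 3744 and 3796 with TET1-CD. The TET1-CD libraries were close together and far below controls, with a log2 fold change of -0.32 (SE 0.06, adjusted p = 0.00335 from edgeR). RPL36 had 2902 and 3169 normalised counts in controls and 2486 and 2458 with TET1-CD, a log2 fold change of -0.30 (SE 0.06, adjusted p = 0.00764 from edgeR).

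RPL37A, a zinc-binding protein, had 8179 and 8907 normalised counts in controls and 7140 and 6871 with TET1-CD. This was a log2 fold change of -0.29 (SE 0.06, adjusted p = 0.00821 from edgeR). RPL31, which lines the rim of the tunnel through which the new peptide leaves, had 6048 and 6305 in controls and 4966 and 5249 with TET1-CD, a log2 fold change of -0.27 (SE 0.06, adjusted p = 0.00751 from edgeR). None of these 4 genes overlapped between groups, and each was called in 11 of 14 alternatives.

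RPL23, which like RPL5 and RPL11 can bind the p53 regulator MDM2 when free of the ribosome, had 9046 and 9105 normalised counts in controls and 7732 and 7602 with TET1-CD. Its log2 fold change was -0.24 (SE 0.05, adjusted p = 0.00877 from edgeR). Its groups did not overlap.

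RPL10, which closes the last step of large subunit maturation and contacts the peptidyl transferase centre, was the most abundant gene that was called. It had 27991 and 29472 normalised counts in controls and 23933 and 24298 with TET1-CD. It fell by 0.25 (SE 0.05, adjusted p = 0.0108 from edgeR). Other called large subunit genes were RPL37, RPL28, RPLP2, RPL15, RPL26, RPL41 and RPL39, with log2 fold changes from -0.27 to -0.19 and adjusted p from 0.0169 to 0.0493 in edgeR. RPL41, the shortest member with a coding sequence of 75 nt, had 9994 and 11080 normalised counts in controls and 8758 and 9400 with TET1-CD. In RPL37 the control libraries were far apart, with 5676 and 6881 normalised counts in controls and 5299 and 5141 with TET1-CD.

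By role, 1 of the 3 genes of the P stalk, which recruits the elongation factors, was called lower. This is 33.3%, against 23.1% of all members and 9.61% of all genes. The acidic protein gene RPLP2 was lower, with 2418 and 2754 normalised counts in controls and 2162 and 2269 with TET1-CD (log2 fold change -0.22, SE 0.07, adjusted p = 0.0493 from edgeR). RPLP1, the partner of RPLP2 in the stalk, had 10720 and 11514 in controls and 9908 and 10861 with TET1-CD, and the groups overlapped. RPLP0, the base of the stalk, had 24428 and 25153 in controls and 24710 and 25374 with TET1-CD, a log2 fold change of 0.01 (SE 0.05). RPLP0 changed its sign in some alternatives, and whether the 3 genes differ from each other was not tested.

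The 5S particle proteins RPL5 and RPL11, which dock the 5S rRNA and can bind MDM2, were not called. RPL5 had 12902 and 12628 normalised counts in controls and 12039 and 11977 with TET1-CD, without overlap but with a log2 fold change of only -0.09 (SE 0.05, adjusted p = 0.26 from edgeR). RPL11 had 6289 and 6602 in controls and 5972 and 6365 with TET1-CD, and the groups overlapped. Of the 9 genes at the peptide exit tunnel and its rim, RPL31, RPL26 and RPL39 were called lower. This is 33.3%, against 23.1% of all members and 9.61% of all genes. All 9 were below 0, as were 70 of the 78 members and 49.8% of all genes tested, with a median of -0.13 over the 9.

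In the small subunit, the mRNA entry channel is formed by RPS2, RPS3 and FAU, and none of the 3 was called. RPS2 had 27108 and 27442 normalised counts in controls and 26960 and 26634 with TET1-CD, a log2 fold change of -0.03 (SE 0.05). RPS3 had 16341 and 16948 in controls and 14802 and 15638 with TET1-CD, a log2 fold change of -0.13 (SE 0.06, adjusted p = 0.133 from edgeR). FAU, whose product is cut into a ubiquitin-like protein and the ribosomal protein S30, had 4005 and 4338 in controls and 4226 and 4135 with TET1-CD. RPS2 and RPS3 were lower without overlap, whereas the groups overlapped in FAU.

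On the exit side, RPS26 and RPSA stood apart from RPS28 in value. RPS26 had 5299 and 5344 normalised counts in controls and 5424 and 4900 with TET1-CD, so the TET1-CD libraries lay on either side of controls. RPSA, which doubles as a laminin receptor, had 17684 and 18103 in controls and 18333 and 19360 with TET1-CD, with a log2 fold change of 0.08 (SE 0.05, adjusted p = 0.378 from edgeR). RPS27A, which is made as a fusion with ubiquitin, had 7611 and 8134 in controls and 6946 and 7476 with TET1-CD, a log2 fold change of -0.13 (SE 0.06, adjusted p = 0.169 from edgeR). RPS6, the ribosomal substrate of S6 kinase, had 9518 and 9600 in controls and 8968 and 8832 with TET1-CD, a log2 fold change of -0.10 (SE 0.05, adjusted p = 0.187 from edgeR). Neither RPS27A nor RPS6 overlapped between groups.

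Of 18 members mutated in Diamond-Blackfan anaemia, RPS28, RPS29, RPL31, RPL15, RPL26 and RPS19 were called lower, which is 33.3% against 23.1% of all members and 9.61% of all genes. Of the 18, 17 were below 0, as were 70 of the 78 members, and their median was -0.13. The 4 X-linked members were all lower without overlap, as were 53 of the 78 members and 30.2% of all genes tested. Of the 4 X-linked members, 2 (RPL10 and RPL39) were called lower, against 23.1% of all members and 9.61% of all genes. Whether the X-linked members differ from the other members was not tested. RPL36A and RPS4X had log2 fold changes of -0.16 and -0.13.

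The other end of the order held 8 members above 0, none of them called. Of these, FAU, RPLP0 and RPS10 changed sign when single libraries were left out. RPL7A, at 20331 and 20285 in controls and 20958 and 21037 with TET1-CD, and RPL14, at 7070 and 6800 in controls and 7119 and 7139 with TET1-CD, were higher without overlap by 0.05 and 0.04 on the log2 scale. RPS10 had 6107 and 6462 in controls and 6419 and 6476 with TET1-CD, with overlap.

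Per length, the members were among the most abundant genes of these cells. Their mean FPKM ran from 12.4 to 2158 with a median of 643, against a median of 9.64 over all genes tested, and 39 of the 100 genes with the highest mean FPKM were members. The highest were RPS24 at 2158, RPL10 at 1904, RPS2 at 1473, RPL13 at 1446 and RPL7 at 1430 FPKM. Among the lowest were RPS28 at 35.3, RPLP2 at 169, RPL38 at 224 and RPS29 at 229 FPKM. As the ribosome holds most of these proteins in equal number, this spread of mRNA levels is a property of the libraries, the counting and the mRNAs together, which were not separated.

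Among the 5 most abundant members, only RPL10 was called. RPL13 had 18778 and 19933 normalised counts in controls and 17164 and 17460 with TET1-CD, with a log2 fold change of -0.16 (SE 0.06, adjusted p = 0.0673 from edgeR). RPL38, which is short and of low level, had 3107 and 3328 in controls and 3093 and 2893 with TET1-CD, a log2 fold change of -0.10 (SE 0.06, adjusted p = 0.26 from edgeR). Both were lower without overlap, but RPL38 by a narrow margin.

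The members with the shortest coding sequences had the lowest fold changes. The median log2 fold change was -0.20 over the 6 members of up to 250 nt, -0.17 over 10 members of 250 to 350 nt and -0.14 over 20 members of 350 to 450 nt. It was -0.09 over 19 members of 450 to 600 nt, -0.10 over 15 of 600 to 800 nt and -0.07 over 7 of 800 to 1500 nt. Across 77 members with a coding length, Pearson's r between length and log2 fold change was 0.46 and Spearman's rho was 0.49. These values are across genes of the same 4 libraries, which share depth and fragment selection, and genes are not independent replicates. Other protein-coding genes with a log2 CPM (counts scaled to library size) over 5 had medians between -0.01 and 0.02 in the same 6 bins. Across 6197 such genes, r was -0.05 and rho was -0.04. Level also went with the change in the 77 members: between mean log2 CPM and log2 fold change, r was 0.37 and rho was 0.15. Coding length can differ from the length of the transcript with the most counts, as in RPS28, and length and level were not separated.

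**Figure D3:**
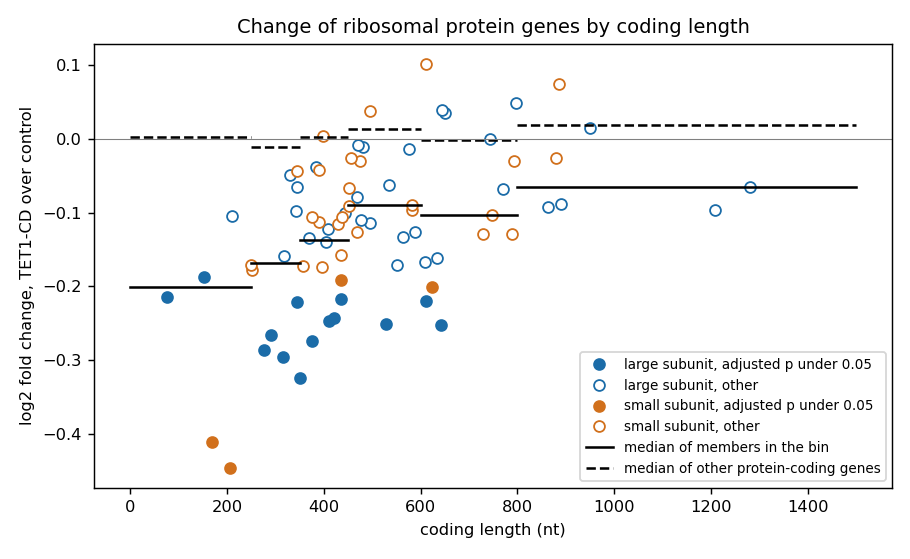
Each point is a member, with its coding length in nt on the x axis and its log2 fold change between TET1-CD and control cells on the y axis, and filled points passed an adjusted p under 0.05. Solid lines give the median of members in each length bin, from -0.20 in the shortest to -0.07 in the longest, and broken lines the median of other protein-coding genes with a log2 CPM over 5, which stays near 0.

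TOP tracts are the sequence feature best known in these genes, so the listed starts of members at both ends of the order are shown. The windows are from RefSeq on GRCh38.p14 and hold 15 bases before the start and 15 from it onward, 5′ to 3′ on the strand of the gene. Capitals mark a tract, taken as a C at the start followed by at least 4 bases that are C or T.
RPS28 (chr19:8321481-8321510, plus): tccccgaagcacgtgactcctctccgccag
RPS29 (chr14:49598696-49598725, minus): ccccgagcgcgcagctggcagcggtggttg
RPL34 (chr4:108620561-108620590, plus): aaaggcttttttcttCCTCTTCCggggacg
RPL36 (chr19:5690280-5690309, plus): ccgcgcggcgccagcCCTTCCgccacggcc
RPL37A (chr2:216498829-216498858, plus): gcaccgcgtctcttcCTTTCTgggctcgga
RPL31 (chr2:101002274-101002303, plus): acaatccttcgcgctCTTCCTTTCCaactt
RPL10 (chrX:154398362-154398391, plus): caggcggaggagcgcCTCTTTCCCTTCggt
RPLP0 (chr12:120201097-120201126, minus): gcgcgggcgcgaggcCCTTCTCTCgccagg
RPS10 (chr6:34426055-34426084, minus): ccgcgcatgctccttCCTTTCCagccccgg
RPL14 (chr3:40457324-40457353, plus): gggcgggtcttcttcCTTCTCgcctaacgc
RPL7A (chr9:133348203-133348232, plus): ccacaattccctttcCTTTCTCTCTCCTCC
RPSA (chr3:39406705-39406734, plus): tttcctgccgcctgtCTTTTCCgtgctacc

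Both the genes that fell most in the large subunit (RPL34, RPL36, RPL37A and RPL31) and the genes above 0 (RPL7A, RPL14, RPS10 and RPSA) carried a tract at the listed start. RPS28 and RPS29, the genes with the largest falls, had none at the listed start, which says only that these letters do not begin there. In the RPS28 window a stretch of C and T begins at the very next base. RPS28 was still counted as without a tract, so its class depends on the exact start listed. The search was made on the transcribed strand alone. Entries were found for 63 of the 78 members, and 47 of these (74.6%) had a tract at a listed start, against 5.14% of all 27305 symbols with an entry. The 15 members for which no entry was used include RPL8, RPS15A, RPL23, RPL5, RPS2, RPL30, RPL7, RPL37, RPS20 and RPL23A.

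Members with and without a tract had medians close to each other. The median log2 fold change was -0.11 over the 47 members with a tract, of which 11 were called, -0.12 over the 16 without, of which 3 were called, and -0.08 over the 15 with no entry, of which 4 were called. Over all 78 members 18 were called lower (23.1%), against 9.61% of all genes tested. Whether these classes differ was not tested. CG dinucleotides, at which TET1 acts when they are methylated, numbered 25 per 300 bases in the median member promoter, from 6 to 38, against 14.0 over all 35116 entries. Methylation itself was not measured in these libraries.

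Processed pseudogenes are a known source of error in this family, because they are near copies of the spliced mRNA. The files list 847 pseudogenes of members by symbol, and their counts together were 0.102% to 0.114% of each library. Adding them to their members left 18 members called lower, the same 18 genes. It turned the sign of RPL21, RPL9 and RPL7, whose log2 fold changes of -0.01, -0.01 and -0.0006 became 0.14, 0.066 and 0.0028. RPL21 had 5106 and 5632 normalised counts in controls and 5356 and 5294 with TET1-CD, and RPL9 had 5166 and 5364 in controls and 5190 and 5237 with TET1-CD. RPL7 had 17625 and 18561 in controls and 18151 and 18019 with TET1-CD, so in all 3 genes the groups overlapped and no direction is given.

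Within members, the classes of transcripts had close shares in all 4 libraries. Protein-coding transcripts held 89.4% to 89.7% of the members' counts and transcripts with a retained intron 4.31% to 4.55%. Of 137 transcripts that held at least 10% of a member in any library, 5 showed a gap of more than 5 percentage points between the groups, in the 3 genes RPS24, RPL8 and RPL14. These were chosen after their values were seen, and transcript shares were not tested.

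RPS24, the most abundant member, held 2 of these transcripts. The largest gap was in RPL8, at 9.78 points between the nearest libraries of the groups, against 7.82 and 7.70 points in RPS24. As a gene, RPS24 had 20283 and 21810 normalised counts in controls and 19574 and 19362 with TET1-CD, with a log2 fold change of -0.11 (SE 0.06, adjusted p = 0.2 from edgeR). Its transcripts differ near the end of the coding sequence by the inclusion of a 3-nt exon at chr10:79797197-79797199 and an 18-nt exon at chr10:79797723-79797740, both on the plus strand of GRCh37. The spliced sequences below start at the same base of the shared exon, and capitals mark the alternative exons.
RPS24, 6 exons: ggcaaaaagtgagctggagattggatcaca
RPS24, 7 exons: ggcaaaaagAAGtgagctggagattggatc
RPS24, 8 exons: ggcaaaaagAAGAAATGAAGTGTCTAGCAG
They code for 130, 131 and 132 residues, so the proteins differ in their last residues.

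The 6-exon transcript held 47.9% and 47.4% of RPS24 counts in controls and 47.6% and 47.7% with TET1-CD. The 7-exon transcript held 32.1% and 32.5% in controls and 22.5% and 24.3% with TET1-CD. The 8-exon transcript held 15.5% and 16.3% in controls and 25.9% and 23.9% with TET1-CD. The 6-exon share was thus level, while the mean share of the 7-exon transcript differed by -8.88 points and that of the 8-exon transcript by 9.04 points, and neither overlapped between groups. On FPKM the 8-exon share was 17.8% in controls and 27.5% with TET1-CD. The exons are so short that only fragments across their junctions tell the transcripts apart, and the number of such fragments is not known from the files.

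**Figure D4:**
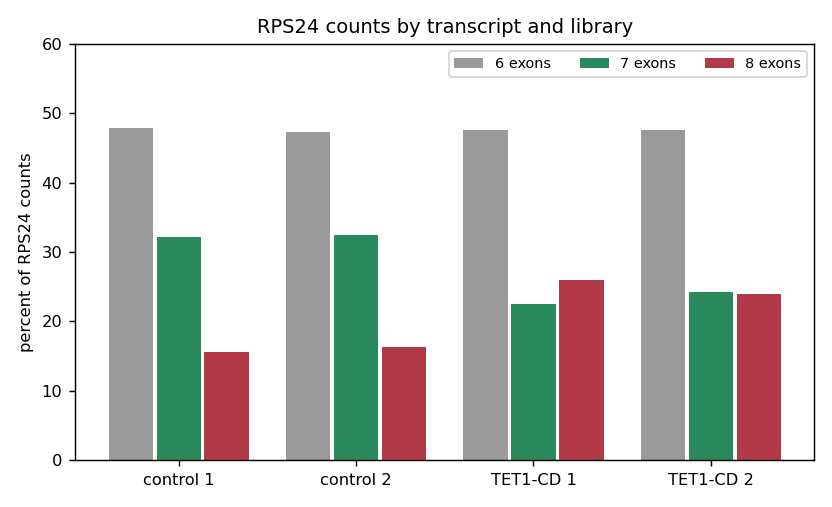
Bars give the percent of RPS24 counts held by the 6-, 7- and 8-exon transcripts in each library, without error bars since each bar is 1 library. The 8-exon share was 15.5% and 16.3% in the control libraries and 25.9% and 23.9% in TET1-CD libraries, while the 6-exon share stayed between 47.4% and 47.9%.

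The other genes of ribosome production were read against the same background. Of 92 ribosome assembly factors, 32 (34.8%) were called higher and none lower at an adjusted p under 0.05 in edgeR, with 1 lower at an unadjusted p under 0.05, against 10.0% of all genes called higher. Their median log2 fold change was 0.15, and the TET1-CD libraries lay above the control libraries without overlap in 65 of them. RIOK1, a kinase of small subunit maturation, had 566 and 538 normalised counts in controls and 814 and 775 with TET1-CD (log2 fold change 0.52, SE 0.08, adjusted p = 0.00133 from edgeR).

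RRP12, an export factor of both subunits, had 2206 and 1953 normalised counts in controls and 2736 and 2747 with TET1-CD, a log2 fold change of 0.40 (SE 0.07, adjusted p = 0.00273 from edgeR). NMD3, the export adaptor of the large subunit, had 1557 and 1568 in controls and 1955 in both TET1-CD libraries, a log2 fold change of 0.32 (SE 0.06, adjusted p = 0.00316 from edgeR). The nucleolar proteins FBL, NCL and NPM1 were not called, at 0.03, 0.04 and -0.08. The count of 32 fell when either TET1-CD library was left out. DESeq2 called 21, with 6.09% of all genes called higher.

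Of 31 genes of RNA polymerases I and III and their factors, which make rRNA, tRNA and 5S rRNA, 6 (19.4%) were called higher and 1 (3.23%) lower, against 10.0% and 9.61% of all genes, with a median of 0.12. POLR3G, the alternative subunit of polymerase III, rose most by p, from 668 and 582 normalised counts in controls to 1016 and 979 with TET1-CD (log2 fold change 0.67, SE 0.08, adjusted p = 4.6e-04 from edgeR). POLR1E and POLR1A, both of polymerase I, rose by 0.30 (SE 0.06) and 0.29 (SE 0.06), with adjusted p of 0.0067 and 0.0105 in edgeR.

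Of 28 listed translation factors and related genes, 5 (17.9%) were called higher, against 10.0% of all genes, and none lower. At an unadjusted p under 0.05 in edgeR 2 were lower, and the median of the 28 was 0.02. Which of these mRNAs are of the TOP class was not examined. EEF1B2, EIF3B and EIF3D rose by 0.24 (SE 0.05), 0.24 (SE 0.05) and 0.23 (SE 0.05), with adjusted p of 0.011, 0.0136 and 0.014 in edgeR. EEF1A1, EEF2 and TPT1 had log2 fold changes of -0.08, -0.05 and -0.09 and were not called, and PABPC1 was at -0.17 with an adjusted p of 0.0519 in edgeR. These 4 genes were below 0 without passing the test.

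Of 23 tested genes of mTOR signalling, TOP-binding proteins and the MYC network, 3 were called lower and none higher, with 1 higher at an unadjusted p under 0.05 in edgeR and a median of 0.00. This is 13.0% called lower, near the 9.61% of all genes. The called genes were MNT, a repressor that pairs with MAX, at -0.48 (SE 0.09), MAX at -0.23 (SE 0.06), and RPTOR, the scaffold of mTOR complex 1, at -0.22 (SE 0.06), with adjusted p of 0.00581, 0.0271 and 0.0335 in edgeR. MYC had 1370 and 1402 normalised counts in controls and 1261 and 1292 with TET1-CD, a log2 fold change of -0.12 (SE 0.06, adjusted p = 0.192 from edgeR). The 12 snoRNA host genes, which carry the guides of rRNA modification in their introns, had a median of -0.11, close to that of the members, with 8 of 12 below 0. Of these, 1 (8.33%) was called lower and 2 (16.7%) higher, against 9.61% and 10.0% of all genes. ZFAS1 fell by 0.31 (SE 0.08, adjusted p = 0.0196 from edgeR), and SNHG7 and SNHG15 rose by 0.33 (SE 0.09) and 0.29 (SE 0.09), with adjusted p of 0.0248 and 0.0463 in edgeR.

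The mitochondrial ribosome, which is built from nuclear genes of another family, had 4 of 77 genes (5.19%) called higher and 1 (1.3%) lower, both under the 10.0% and 9.61% of all genes, with a median of 0.04. MRPS30 and MRPL42 rose by 0.34 (SE 0.06) and 0.25 (SE 0.07), and MRPL34 fell by 0.36 (SE 0.10), with adjusted p of 0.00555, 0.0275 and 0.0294 in edgeR. Of 7 tested paralogs of members, RPL26L1 was called higher, with 1068 and 1133 normalised counts in controls and 1350 and 1426 with TET1-CD (log2 fold change 0.34, SE 0.06, adjusted p = 0.00544 from edgeR). RPL26 itself was called lower, from 12176 and 13349 in controls to 11021 and 10933 with TET1-CD. RPL22L1, RPL39L and RPS27L had log2 fold changes of -0.24, 0.29 and -0.13 and were not called.

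**Figure D5:**
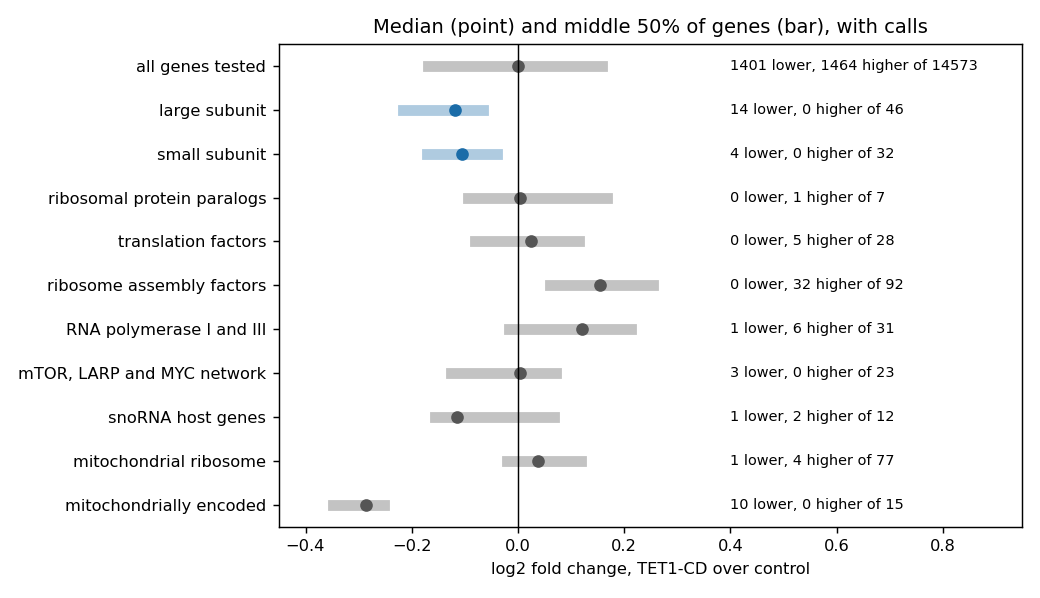
Points give the median log2 fold change between TET1-CD and control cells of each gene group and bars span the middle 50% of its genes, with the number called lower and higher at an adjusted p under 0.05 of those tested. Large and small subunit genes (blue) sit at -0.12 and -0.11, ribosome assembly factors at 0.15 and all genes tested at 0.00.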

How the data were processed

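RNAseq libraries of T24 cells were analysed (2 control and 2 TET1-CD, grouped and numbered by their labels). The authors deposited, per transcript and library, expected counts and FPKM on GRCh37 coordinates. The submitters' processing notes name cutadapt 1.9.1, HISAT2 2.0.1, HTSeq 0.6.1, DESeq2 and hg19, without roles. The counts are not whole, and the quantifier is not given in the sources used here. Expected counts were summed per gene identifier and rounded. Control and TET1-CD cells were compared with edgeR 4.0.16 (glmQLFit, glmQLFTest, TMM, filterByExpr) in R 4.3.3, with Benjamini-Hochberg adjustment over all genes tested and calls at an adjusted p under 0.05. The SE was derived from the log2 fold change and the F statistic (their ratio after taking the root of F). Normalised counts were scaled by TMM to the mean library. The script was tested on simulated data, where 23 of 150 calls fell on unchanged genes. Of 48 genes changed by 0.25 on the log2 scale, 11 (23%) were called. Members and lists were chosen with earlier results of these data known. Genes named are called members (up to 8 by p), the 5 highest and lowest by FPKM and by fold change, small role groups, up to 3 called genes per list, TET1, and members that pseudogenes changed, and others were named after their values were seen. Alternatives were DESeq2 1.42.0, limma-voom 3.58.1, other normalizations and filters, a replicate block, pseudogenes added, the top transcript only and the omission of each library. Same-numbered libraries were not paired (correlation of deviations 0.007). Some genes that the rule names are not reported here. Coding lengths are from GENCODE 44 on GRCh37.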

Additional observations from a re-analysis of the deposited data

How the results depend on the processing

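The count of members called lower, 18, was between 16 and 27 under DESeq2, limma-voom, the 3 other normalizations, both filters and added pseudogenes. It was 1 with only the top transcript of each gene, where 1.65% of all genes were called lower. The count also depended on single libraries. When either TET1-CD library was left out, the share of members called lower was not above that of all genes. No member reached a fold change of 2 under any alternative. When 1 library was left out, the medians ran from -0.16 to -0.084 (large subunit) and from -0.16 to -0.065 (small subunit). The count of assembly factors called was 21 in DESeq2 and 3 with the top transcript only, and 4 to 47 when 1 library was left out. The difference in share of counts was -0.28 percentage points on counts and -0.74 on FPKM. The difference in the ratio of the subunits was -0.036, and -0.020 with the top transcript only. Leaving out a library leaves fewer samples, and for the other settings the cause was not tested. With the replicate block, 22 members were called, including all 18, with 11.1% of all genes called lower, and the numbers do not pair the libraries (correlation of deviations 0.001 over members).

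Of the 78 members, 17 changed sign in at least 1 alternative, 13 of them when a library was left out and 6 with the top transcript only. With the top transcript only, RPL29 went from -0.11 to 0.077, RPS23 from -0.12 to 0.027, RPL23A from -0.079 to 0.056 and RPL4 from -0.065 to 0.011. When 1 library was left out, FAU ran from -0.062 to 0.060, RPL21 from -0.089 to 0.059, RPL7 from -0.046 to 0.035, RPL9 from -0.049 to 0.011, RPLP0 from -0.014 to 0.035, RPS10 from -0.011 to 0.076 and RPS26 from -0.12 to 0.028. RPL21 was at 0.0009 by library size only, 0.14 with pseudogenes added and 0.13 with the top transcript only. RPL7 was at 0.0002 in limma-voom, 0.0015 with 10 counts in every library, 0.0028 with pseudogenes added and 0.012 by library size only. RPL9 was at 0.066 with pseudogenes added and 0.12 with the top transcript only. The 18 called members were below 0 in every alternative run.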

Other observations

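RPL14 and RPL8 were the other members whose transcripts differed in share, and both were singled out after their values were seen. A transcript of RPL14 with a retained intron held 20.3% and 30.1% of the gene in controls and 8.60% and 13.2% with TET1-CD, and a protein-coding transcript held 71.2% and 60.8% in controls and 82.5% and 78.0% with TET1-CD. A protein-coding transcript of RPL8 held 26.8% and 22.5% in controls and 36.6% in both TET1-CD libraries. The groups did not overlap in any of these, but the control libraries also differed from each other in RPL14.

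Among the pseudogenes of members, 43 had enough counts for a test. RPL9P7 had 186 and 14.0 in controls and 1213 and 217 with TET1-CD (log2 fold change 2.76, SE 0.80, adjusted p = 0.0376 from edgeR). Its libraries differed by more within each group than RPL9 did between groups.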
